A study of Mus musculus with 15 samples.

Results

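The miR-181 family of the mouse was followed through the differentiation of epiblast stem cells (EpiSC, the primed pluripotent cells of the postimplantation embryo). Its members were the array rows named mmu-miR-181a-5p, mmu-miR-181b-5p, mmu-miR-181c-5p and mmu-miR-181d-5p (written below without the species prefix), which are 4 of the 1122 mouse miRNAs on the array, and all 4 were above background on 15 of 15 arrays. They are the 5p arms of 6 hairpins, whose 6 other arms were also on the array. The cells came from Pitx3-GFP mice, which carry a reporter of a gene of midbrain dopaminergic neurons, and were allowed to differentiate for 14 days. Treated cells received the morphogens SHH and FGF8 from day 5 and were collected at day 9 and day 14; control cells were kept without morphogens and collected at the same days; cells of day 5 had not yet seen either factor. Each of these 5 groups had 3 single-colour arrays, and all cells shared the EpiSC origin and the reporter. The labels call the treated cells DA cells, give no sort on the reporter, and do not say whether replicates were separate cultures, so each p-value measures the spread between these samples, which may be technical.

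A miRNA recognises its targets mainly through its seed, bases 2 to 8 from the 5′ end, so members of a family that share the seed share most predicted targets. The miR-181 family is abundant in brain and in lymphocytes, where miR-181a tunes the sensitivity of the mouse T cell receptor. Its genes lie in clusters of an a or c hairpin beside a b or d hairpin, and the 5p arm is the usual guide strand.

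The 4 mature sequences are shown because the members differ by few bases, and those closest in sequence correlated most over the arrays. They are from RefSeq (GRCm38.p6, all 4 members matched), 5′ to 3′, with the seed in capitals.
mmu-miR-181a-5p: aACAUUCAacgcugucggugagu
mmu-miR-181b-5p: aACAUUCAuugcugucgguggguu
mmu-miR-181c-5p: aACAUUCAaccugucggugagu
mmu-miR-181d-5p: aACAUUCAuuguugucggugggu
The seed was the same in 4 of 4 members, and of 1679 mature mouse miRNAs in the RefSeq table these 4 carried it. miR-181a-5p and miR-181c-5p were 1 edit apart and shared their last 12 bases. miR-181b-5p and miR-181d-5p were 2 edits apart and shared their first 11 bases, with C12U from b to d counted from the 5′ end. Between miR-181a-5p and miR-181b-5p the distance was 4 edits, with A9U, C10U and A21G from a to b, and between miR-181c-5p and miR-181d-5p it was 5. How much signal such near-identical sequences share on their probes was not tested, so the values of a member may hold some signal of its closest relative.

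The pairs by sequence are not the pairs by gene. miR-181a-5p is encoded on chromosome 1 (Mir181a-1, mature arm at chr1:137966468-137966490, plus strand) and on chromosome 2 (Mir181a-2, chr2:38852741-38852763, plus strand). miR-181b-5p lies beside it at both loci (Mir181b-1, chr1:137966650-137966673, and Mir181b-2, chr2:38853845-38853868, plus strand), with 97 bases between the hairpins on chromosome 1 and 1019 on chromosome 2. miR-181c-5p (chr8:84178924-84178945) and miR-181d-5p (chr8:84178759-84178781) share chromosome 8, minus strand, with 85 bases between their hairpins. The hairpins on chromosome 2 lie within the spans of Nr6a1, a protein-coding gene, and Nr6a1os, a long noncoding RNA gene, and those on chromosomes 1 and 8 overlap no other annotated gene. The mature arms of the 2 loci of miR-181a are the same sequence, so the array cannot tell the loci apart by them. The hairpins are shown to make this visible, with the shared 5p arm in capitals.
Mir181a-1: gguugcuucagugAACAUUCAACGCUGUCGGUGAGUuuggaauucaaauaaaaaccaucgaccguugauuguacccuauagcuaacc
Mir181a-2: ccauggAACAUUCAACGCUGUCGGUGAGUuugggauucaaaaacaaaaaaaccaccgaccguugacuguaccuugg
The 3p arms differ between these loci, in the seed too, and are given with their own seeds in capitals.
miR-181a-1-3p: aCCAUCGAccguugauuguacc
miR-181a-2-3p: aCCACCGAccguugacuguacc

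Values below are background-subtracted spot signals divided by each array's 75th percentile and put on the log2 scale; they are relative signals of 1 probe, comparable between arrays but not between probes. That percentile ran from 149 to 337 intensity units, 237 to 326 miRNAs were above background per array, 0 spots were saturated, and replicates of a group correlated at Pearson's r 0.980 to 0.998 across the 306 tested miRNAs. A difference was called at an adjusted p under 0.05 in limma, adjusted over all 306. The arrays lay on 2 slides. Slide 1 held day 5, treated day 9 and treated day 14 replicates 1 and 2, and slide 2 held treated day 14 replicate 3 and all control arrays, so treated and control cells of day 9 never shared a slide. With slide as a block, their difference rests on the treated day 14 arrays, the only group on both slides.

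In marker checks, miR-124-3p, the neuronal miRNA, averaged 1.33 ± 0.02 in treated day 9 cells, 2.26 ± 0.08 in treated day 14 cells, 2.30 ± 0.04 in control day 9 cells, 3.30 ± 0.10 in control day 14 cells and 1.05 ± 0.07 at day 5 (SD, n = 3 each, scaled log2 signal). miR-302d-3p, a miRNA of primed pluripotent cells, averaged -2.11 ± 0.08, -3.32 ± 0.23, -2.47 ± 0.26, -3.36 ± 0.09 and 0.09 ± 0.30 in the same order. On 0 of 15 arrays was miR-133b-3p, a miRNA linked to the dopaminergic neurons of the midbrain, above background. As it was at the floor in treated and control cells alike, it says nothing on the dopaminergic label of the treated cells. Of 9 markers of blood and endothelium, cells rich in miR-181, 0 were above background on any array.

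The scaled log2 signal of each member on each array shows a low start at day 5 and a higher level at every later point, with control cells above treated cells of the same day. miR-181a-5p was at -2.21, -2.29 and -2.02 on the day 5 arrays. In treated cells it was at -1.0, -0.90 and -0.88 at day 9 and at -0.24, -0.03 and -0.24 at day 14. In control cells it was at -0.42, -0.32 and -0.40 at day 9 and at 0.21, 0.27 and 0.28 at day 14. None of the 5 groups of miR-181a-5p overlapped another, and it rose at both steps in both arms.

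miR-181b-5p, which in human and mouse endothelium represses NF-kB signalling through an importin, was at -1.46, -1.54 and -1.52 at day 5. In treated cells it was at -0.93, -0.90 and -0.77 at day 9 and at -0.89, -0.79 and -0.76 at day 14, and these days overlapped. In control cells it was at -0.12, -0.22 and -0.29 at day 9 and at -0.71, -0.66 and -0.62 at day 14. Its highest arrays were thus the control arrays of day 9, and control cells of day 14 lay just above the treated arrays of that day without overlap.

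miR-181c-5p, which in rat heart muscle cells represses a mitochondrially encoded subunit of cytochrome c oxidase, was the dimmest member, at intensities of 16.0 to 94.4 on its brightest probe. It was at -3.32, -3.24 and -3.22 at day 5. Treated cells had -2.24, -2.34 and -2.37 at day 9 and -2.16, -2.01 and -2.08 at day 14. Control cells had -2.03, -1.94 and -1.97 at day 9 and -1.73, -1.58 and -1.51 at day 14. Like miR-181a-5p it ended highest in control day 14 cells, while treated day 14 and control day 9 arrays overlapped.

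miR-181d-5p, known in human glioma for repressing the DNA repair gene MGMT, was at -2.10, -2.22 and -2.28 at day 5. Treated cells had -1.68, -1.58 and -1.47 at day 9 and -1.58, -1.43 and -1.38 at day 14, which overlapped. Control cells had -0.88, -1.01 and -1.06 at day 9 and -1.30, -1.08 and -1.09 at day 14. Here too the control arrays of day 9 were the highest, as in miR-181b-5p.

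**Figure D1:**
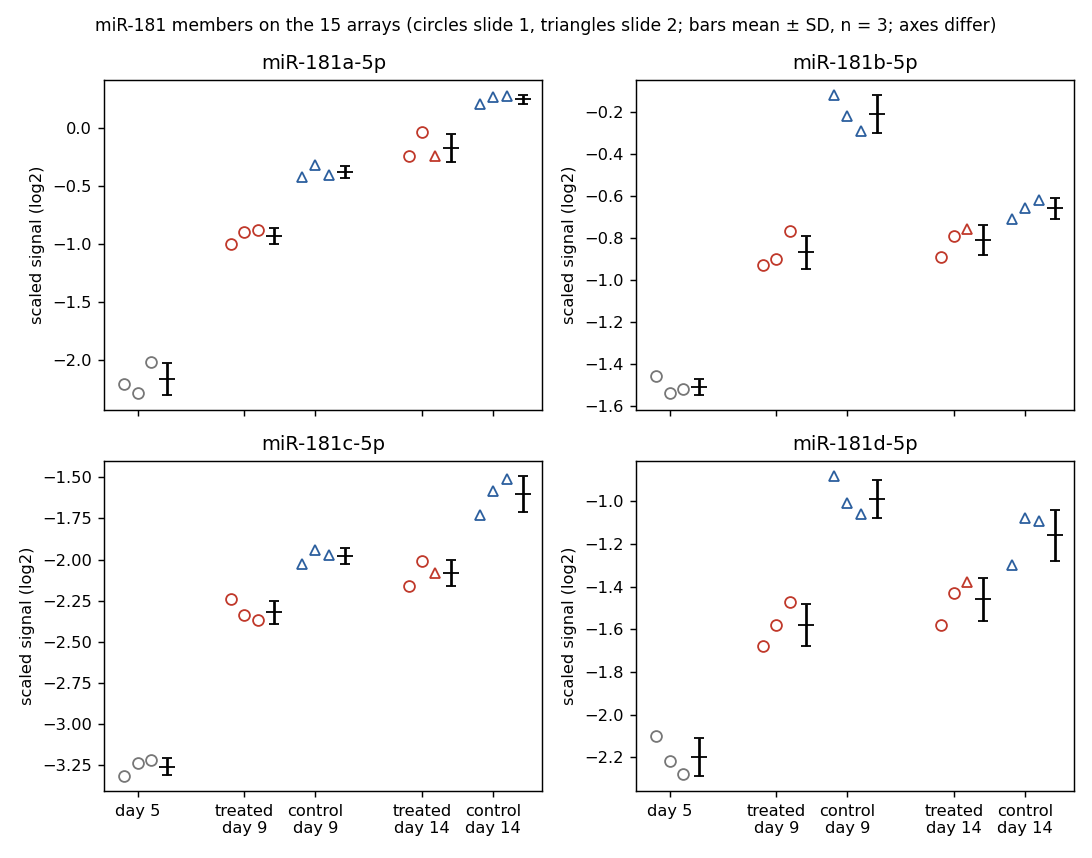
Scaled log2 signal (vertical axis) of the 4 miR-181 members in the 5 groups, with a point per array (circles on slide 1, triangles on slide 2) and bars for mean ± SD, n = 3. miR-181a-5p and miR-181c-5p are highest in control cells at day 14 (means 0.25 and -1.60), and miR-181b-5p and miR-181d-5p in control cells at day 9 (means -0.21 and -0.99).

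Treated cells at day 9 had less of every miR-181 member than control cells at day 9. miR-181b-5p averaged -0.87 ± 0.08 in treated cells and -0.21 ± 0.09 in control cells (SD, n = 3 each), a log2 difference of -0.66 (SE 0.07, adjusted p 2.8e-06, 0.635-fold). miR-181d-5p averaged -1.58 ± 0.10 in treated cells and -0.99 ± 0.09 in control cells, and differed by -0.59 (SE 0.09, adjusted p 6.6e-05, 0.663-fold). miR-181a-5p averaged -0.93 ± 0.07 in treated cells and -0.38 ± 0.05 in control cells, and differed by -0.55 (SE 0.08, adjusted p 6.2e-05, 0.683-fold). miR-181c-5p averaged -2.32 ± 0.07 in treated cells and -1.98 ± 0.05 in control cells, and differed by -0.34 (SE 0.07, adjusted p 0.0012, 0.792-fold). So 4 of 4 members were called lower, beside 15% of all tested miRNAs called lower and 55.6% called in either direction, and the groups did not overlap in 4 of 4, beside 19.9% of all that were lower without overlap. The median of the members was -0.57, and the median of all 306 miRNAs was 0.25. In bulk samples fewer cells that make a miRNA and less of it per cell cannot be told apart. With slide as a block the differences of day 9 were -0.65, -0.57 and -0.47 for miR-181a-5p, miR-181b-5p and miR-181d-5p (adjusted p 0.0055, 0.0039 and 0.048), and miR-181c-5p at -0.34 was no longer called (adjusted p 0.086), nor was it with normexp background correction (-0.16, adjusted p 0.46). No slide held both groups of day 9, so there is no value within a slide.

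The size of these differences depends on the scaling, since that moves the median of all miRNAs at day 9 between -0.25 and 0.25. The members differed by -0.66 to -0.34 at day 9 as reported, by -1.25 to -0.93 with the percentile over all probes, by -0.85 to -0.69 after quantile normalization and by -0.94 to -0.62 when scaled by the median, all called; the order among members was not the same throughout, with miR-181c-5p at -0.82 and miR-181d-5p at -0.69 after quantile normalization. Of the miRNAs called at day 9, 124 of 170 were higher in treated cells as reported, 41 of 162 with the percentile over all probes, 65 of 154 after quantile normalization and 71 of 156 when arrays were scaled by their median. At day 14 the split was 119 of 163, 37 of 114, 69 of 134 and 76 of 140 in the same order. Every member was below the median of all under each of these scalings, by -1.0 to -0.59 at day 9 and by -0.77 to -0.26 at day 14. The percentile and median scalings divide an array by a single factor, which cancels against that median except at the floor. Their likeness here was therefore fixed in advance, and only quantile normalization could differ much. With it the members lay by -0.82 to -0.66 below the median at day 9 and by -0.62 to -0.26 at day 14.

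At day 14 treated cells still had less miR-181c-5p, miR-181a-5p and miR-181d-5p than control cells. miR-181c-5p averaged -2.08 ± 0.08 in treated cells and -1.60 ± 0.11 in control cells, a log2 difference of -0.48 (SE 0.07, adjusted p 9e-05, 0.717-fold). miR-181a-5p averaged -0.17 ± 0.12 in treated cells and 0.25 ± 0.04 in control cells, and differed by -0.43 (SE 0.08, adjusted p 0.00061, 0.744-fold). miR-181d-5p averaged -1.46 ± 0.10 in treated cells and -1.16 ± 0.12 in control cells, and differed by -0.31 (SE 0.09, adjusted p 0.0093, 0.808-fold). miR-181b-5p, at -0.81 ± 0.07 in treated cells and -0.66 ± 0.05 in control cells, differed by -0.15 (SE 0.07, adjusted p 0.083; 95% interval -0.30 to 0.00) and was not called. It was called lower with 5 other settings of scaling or probe summary, at -0.52 with the percentile over all probes, -0.26 with quantile normalization, -0.35 with median scaling, -0.38 with the scanner software's summed signal and -0.15 with the mean over probes (adjusted p 0.038). In all, 3 of 4 members were called lower at day 14, beside 14.4% of all tested miRNAs called lower and 53.3% in either direction. The median of the members was -0.37, and that of all miRNAs was 0.21. With slide as a block, and likewise on slide 2 alone, where treated cells had a single array that was assumed to vary like the others, miR-181d-5p was at -0.23 and no longer called (adjusted p 0.18 and 0.22), while miR-181a-5p was at -0.49 and miR-181c-5p at -0.48 in both. With normexp background correction the differences of miR-181c-5p (-0.33, adjusted p 0.079) and miR-181d-5p (-0.25, adjusted p 0.14) were not called.

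The treatment difference itself changed between days for miR-181b-5p. Its day 14 difference exceeded its day 9 difference by 0.51 (SE 0.10, adjusted p 0.0015; 95% interval 0.30 to 0.72), and it was the 1 of 4 members called in this comparison, beside 16.7% of all tested miRNAs called in that direction and 32.7% in either. For miR-181d-5p the change was 0.28 (SE 0.12, adjusted p 0.10), for miR-181a-5p 0.12 (SE 0.11, adjusted p 0.46) and for miR-181c-5p -0.14 (SE 0.10, adjusted p 0.32). The call of miR-181b-5p was lost with normexp background correction (0.35, adjusted p 0.12) and with the summed signal (0.33, adjusted p 0.056), and it was kept with slide as a block (0.48, adjusted p 0.004).

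**Figure D2:**
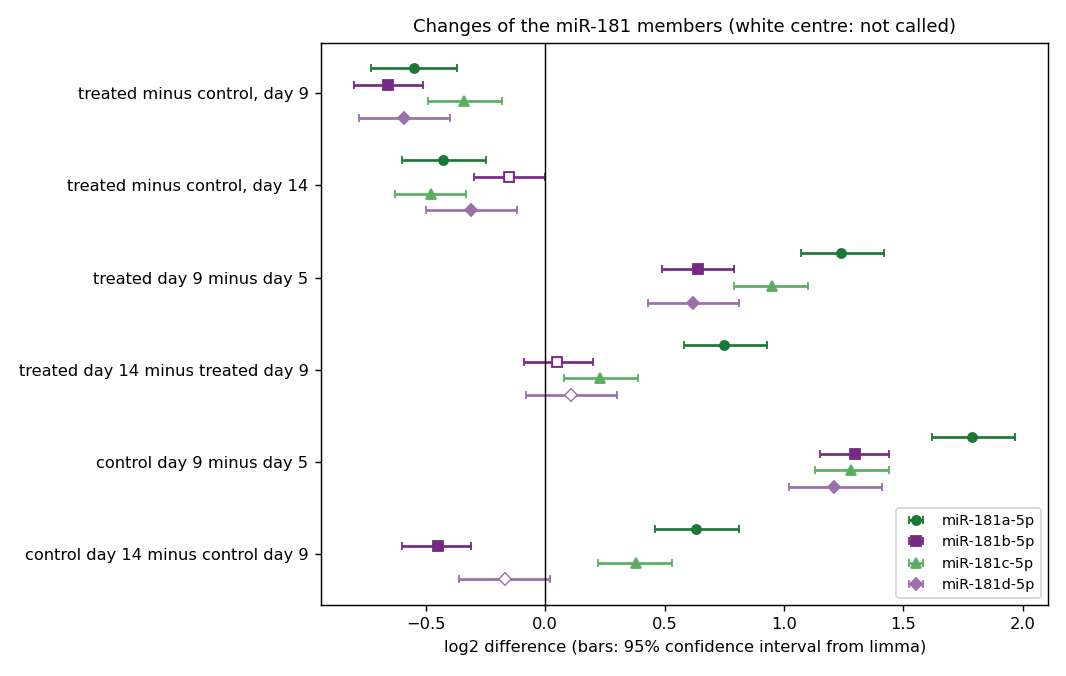
Log2 differences of the 4 members (horizontal axis) in 6 comparisons, with 95% confidence intervals from limma; a white centre marks a difference that was not called. All 4 members lie below 0 for treated minus control at day 9, and miR-181b-5p moves to -0.15 at day 14.

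All 4 members rose between day 5 and day 9, with and without morphogens. In treated cells miR-181a-5p rose by 1.24 on the log2 scale (adjusted p 1.2e-08), miR-181c-5p by 0.95 (adjusted p 5.5e-08), miR-181b-5p by 0.64 (adjusted p 1.9e-06) and miR-181d-5p by 0.62 (adjusted p 2.9e-05). This is 4 of 4 members called higher, beside 37.6% of all tested miRNAs called higher and 58.8% in either direction. In control cells they rose by 1.79, 1.28, 1.30 and 1.21 in the same order of members (adjusted p 2.6e-10 to 4e-08), again 4 of 4, beside 23.9% of all called higher and 58.8% in either direction. Among 306 changes ordered from the highest, those of the members in control cells held places 11, 17, 18 and 20, and those in treated cells places 27, 42, 68 and 71. Both comparisons use the same day 5 arrays. Day 5 and treated day 9 lay on 1 slide, and the control step crossed slides; with slide as a block it was 1.90 for miR-181a-5p, 1.21 for miR-181b-5p, 1.28 for miR-181c-5p and 1.09 for miR-181d-5p, all called. The rises of miR-181c-5p start near the lower end of the measured range. With a floor 4 times higher, the day 5 values of miR-181c-5p and its treated day 9 values of -2.34 and -2.37 lay under the floor. The treated difference at day 9 was then 0.01 (not called), a value fixed by the floor that does not bear on the rise. Cut by the same floor at day 5, miR-181c-5p was at 0.29 in control cells at day 9, and at 0.19 in treated cells and 0.67 in control cells at day 14 (these 3 called). With normexp background correction the treated rise to day 9 was 0.23 (adjusted p 0.20), where miR-181d-5p was also at 0.23 (adjusted p 0.13).

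Between day 9 and day 14 the members did not all move the same way. miR-181a-5p rose by a further 0.75 in treated cells (SE 0.08, adjusted p 2e-06) and by 0.63 in control cells (SE 0.08, adjusted p 1.2e-05). miR-181b-5p fell by 0.45 in control cells (SE 0.07, adjusted p 5.9e-05) and in treated cells differed by 0.05 (SE 0.07, adjusted p 0.52; 95% interval -0.09 to 0.20). miR-181c-5p rose by 0.38 in control cells (adjusted p 0.00045) and by 0.23 in treated cells (adjusted p 0.011). Neither step was called for miR-181d-5p, at 0.11 in treated cells (adjusted p 0.28) and -0.17 in control cells (adjusted p 0.13), although the control arrays of the 2 days did not overlap. The control step of miR-181d-5p was called lower after quantile normalization (-0.32, adjusted p 0.011) and with median scaling (-0.46, adjusted p 0.002). Of the 4 members 2 were called higher and 0 lower in treated cells, beside 35.3% of all called higher and 30.7% called lower. In control cells 2 were called higher and 1 lower, beside 31.4% called higher and 22.9% called lower. With 4 members, these counts do not set the family apart from all tested miRNAs. The rises of miR-181c-5p are not secure: the treated one was not called with 5 other settings (0.28 with the percentile over all probes, 0.13 with quantile normalization, 0.02 with median scaling, 0.01 with normexp and 0.01 with the summed signal), and the control one was not called with the first 4 of them (0.21, -0.07, 0.09 and 0.19). Control cells of both days lay on slide 2.

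Over the whole course all 4 members ended above day 5 in both arms. Treated day 14 cells were above day 5 by 2.00 for miR-181a-5p, 1.18 for miR-181c-5p, 0.74 for miR-181d-5p and 0.69 for miR-181b-5p, 4 of 4 called higher beside 47.1% of all. Control day 14 cells were above day 5 by 2.42, 1.66, 1.04 and 0.84 in the same order, 4 of 4 called higher beside 34.3% of all. Adjusted p was at most 4.1e-06 for these 8 differences, which share the day 5 arrays. With normexp background correction miR-181a-5p and miR-181b-5p were still called in treated cells. miR-181c-5p, at 0.24 (adjusted p 0.13), and miR-181d-5p, at 0.23 (adjusted p 0.096), were not. Fewer of all tested miRNAs were called with that correction too, as given below, so the shares above do not apply to it.

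Ordered by mean, the levels ran day 5, treated day 9, control day 9, treated day 14, control day 14 for miR-181a-5p, with each neighbouring pair called (the closest, treated day 14 over control day 9, by 0.21, adjusted p 0.041). For miR-181c-5p the order was day 5, treated day 9, treated day 14, control day 9, control day 14, and the 2 in the middle did not differ beyond their spread (treated day 14 minus control day 9, adjusted p 0.22, overlapping). For miR-181b-5p and miR-181d-5p it was day 5, treated day 9, treated day 14, control day 14, control day 9. There the 2 treated days overlapped and did not differ beyond their spread. Treated and control day 14 of miR-181b-5p (adjusted p 0.083) and control day 14 and day 9 of miR-181d-5p (adjusted p 0.13) did not overlap but were not called as reported, and both were called under some of the other scalings given above.

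The divergence between members can be read within an array, where scaling by the array's percentile cancels. The zero of such a difference has no meaning, since it sets 2 probes against each other, and only its change between groups was used. miR-181a-5p minus miR-181b-5p was -0.66 ± 0.14 at day 5. In treated cells it was -0.06 ± 0.06 at day 9 and 0.64 ± 0.12 at day 14, and in control cells -0.17 ± 0.11 at day 9 and 0.92 ± 0.02 at day 14 (SD, n = 3 each). So miR-181a-5p gained on miR-181b-5p at every step in both arms, although both are cut from neighbouring hairpins at both loci. miR-181b-5p minus miR-181d-5p, 2 members from different chromosomes, stayed between group means of 0.49 (control day 14) and 0.77 (control day 9). miR-181a-5p minus miR-181c-5p lay between these patterns: it was 1.09 at day 5, 1.39 and 1.91 in treated cells at day 9 and day 14, and 1.60 and 1.86 in control cells.

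From day 9 to day 14, averaged over the arms, the difference of miR-181a-5p to miR-181b-5p changed by 0.89, to miR-181d-5p by 0.72 and to miR-181c-5p by 0.39. miR-181b-5p minus miR-181c-5p changed by -0.50, miR-181c-5p minus miR-181d-5p by 0.33 and miR-181b-5p minus miR-181d-5p by -0.17. All 6 pairs were called in an exact permutation test of the days within each arm (two-sided, 400 arrangements, adjusted p 0.0075 to 0.02 over the 6 pairs; 0.005 is the smallest p it can give), a test chosen after these values were seen. The changes had the same sign in both arms for all 6 pairs, but not the same size. They were 0.70 in treated and 1.08 in control cells for miR-181a-5p minus miR-181b-5p. For miR-181b-5p minus miR-181d-5p they were -0.06 in treated and -0.28 in control cells. miR-181b-5p minus miR-181c-5p changed by -0.18 in treated and -0.83 in control cells, and miR-181c-5p minus miR-181d-5p by 0.12 and 0.54. In both of these last pairs the treated arrays of day 9 and day 14 overlapped. The 3 pairs without miR-181a-5p were no longer called with normexp background correction, nor miR-181b-5p minus miR-181d-5p with the mean over probes.

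Whether the members differed in their response to the morphogens was asked in the same way, by permuting treatment within each day. None of the 6 pairs was called: the mean difference of response over both days ran from -0.09 (miR-181a-5p minus miR-181b-5p) to 0.05 (miR-181b-5p minus miR-181d-5p), with adjusted p 0.68 to 0.97 (exact permutation, two-sided, 0 of 6 pairs at an unadjusted p under 0.05). In all 6 pairs the differences of response at the 2 days had opposite signs. These cancel in the tested mean in part or almost fully, so the test cannot show a difference that reverses between days. miR-181b-5p minus miR-181c-5p was at -0.32 at day 9 and 0.33 at day 14, with a mean of 0.01. miR-181a-5p minus miR-181b-5p was at 0.11 and -0.28. A test that misses the threshold does not show that the members respond alike.

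**Figure D3:**
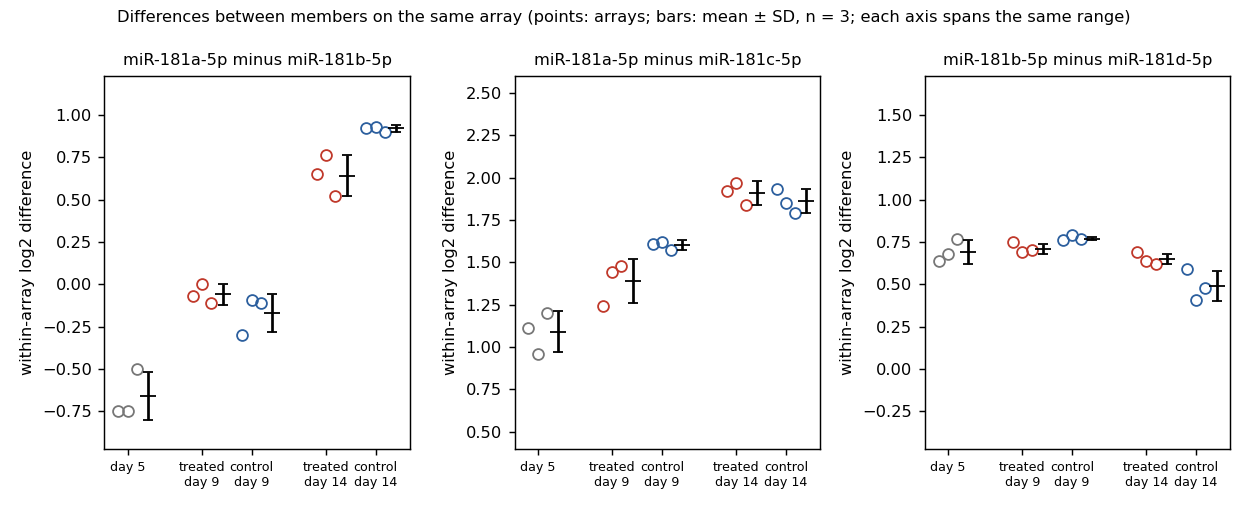
Differences between 2 members on the same array (log2, vertical axis) for 3 pairs in the 5 groups, with a point per array and bars for mean ± SD, n = 3; every panel spans the same range of values. miR-181a-5p minus miR-181b-5p climbs to 0.64 in treated and 0.92 in control cells at day 14, and miR-181b-5p minus miR-181d-5p stays between 0.49 and 0.77.

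Over the 15 arrays the members correlated most within the pairs that are closest in mature sequence: Pearson's r was 0.980 for miR-181a-5p with miR-181c-5p and 0.970 for miR-181b-5p with miR-181d-5p. The pairs that share a cluster followed less closely, at 0.778 for miR-181a-5p with miR-181b-5p and 0.907 for miR-181c-5p with miR-181d-5p. miR-181a-5p with miR-181d-5p was at 0.870 and miR-181b-5p with miR-181c-5p at 0.821. The changes from day 9 to day 14 did not follow the sequence pairs in both arms. Averaged over the arms, miR-181a-5p minus miR-181c-5p changed by 0.39 and miR-181c-5p minus miR-181d-5p by 0.33. In treated cells these changes were 0.52 and 0.12, so the sequence pair moved apart more than the cluster pair. In control cells they were 0.26 and 0.54, the reverse. The correlations are descriptions over 15 arrays that share 5 groups, 1 scaling factor per array and, between near-identical sequences, possibly probe signal, whose part was not tested.

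Each member had a second, dimmer probe, and both moved the same way. For treated minus control at day 9 the brighter and the dimmer probe gave -0.55 and -0.40 for miR-181a-5p, -0.66 and -0.72 for miR-181b-5p, -0.34 and -0.33 for miR-181c-5p, and -0.59 and -0.51 for miR-181d-5p. For control day 14 minus control day 9 they gave 0.63 and 0.64 for miR-181a-5p and -0.45 and -0.41 for miR-181b-5p. The separation of miR-181a-5p from miR-181b-5p between these days therefore appeared on both probes of each. The dimmer probe was above background on 14 of 15 arrays for miR-181a-5p and on 13 of 15 for miR-181c-5p.

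The other arms of the hairpins were at or near background, and 0 of 6 could be tested. miR-181a-1-3p, from the chromosome 1 locus shown above, was well above background on 4 of 15 arrays: treated day 14 replicate 1, control day 9 replicates 2 and 3, and control day 14 replicate 3. Its intensity ran from 3.6 to 15.7, against 34.7 to 326.8 for the brighter probe of miR-181a-5p, and the 2 are not comparable as levels. The other 5 arms, miR-181a-2-3p, miR-181b-1-3p, miR-181b-2-3p, miR-181c-3p and miR-181d-3p, were above background on 0 of 15 arrays, with a highest intensity of 6.8. The measurements therefore do not say which of the chromosome 1 and chromosome 2 loci supplied miR-181a-5p and miR-181b-5p.

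The tested miRNAs most like the family, by Pearson's r over the 15 arrays with the mean of the centred members, were miR-9-5p (0.970), let-7a-5p (0.939), miR-125b-5p (0.939), miR-9-3p (0.938) and let-7c-5p (0.933). miR-9, expressed in neural progenitors and neurons, averaged 0.52 at day 5 as miR-9-5p, then 2.06 at day 9 and 3.05 at day 14 in treated cells and 2.82 and 3.45 in control cells. let-7c-5p, of the let-7 family that rises as pluripotent cells differentiate, was above background on 1 of 3 day 5 arrays (mean -4.05, near the floor of -4.27), then averaged -0.78 and 1.79 in treated cells and 0.30 and 2.06 in control cells. Both were lower in treated than in control cells at day 9, miR-9-5p by a log2 difference of -0.76 (adjusted p 3.7e-05) and let-7c-5p by -1.08 (adjusted p 1.9e-06). miR-9-5p spanned 2.93 between its lowest and highest group mean, and miR-181a-5p 2.42.

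A set of 6 neuronal marker miRNAs, like the family, was mostly lower in treated than in control cells. All 6 belong to the longer neuronal list given below, in which 4 of 16 tested miRNAs were called higher at day 9 and 6 lower. Summed over 6 marker miRNAs (miR-124-3p, both arms of miR-9, miR-128-3p, miR-137-3p and miR-138-5p), the scaled linear signal was 4.03 to 4.33 at day 5. It was 7.79 to 8.10 in treated cells and 13.7 to 15.4 in control cells at day 9, and 15.1 to 17.7 in treated cells and 24.2 to 28.7 in control cells at day 14. Of these 6 markers 5 were called lower in treated cells at day 9 and 6 at day 14, and 0 were called higher at either day. From day 9 to day 14, 6 of 6 markers were called higher in treated cells and 6 of 6 in control cells, a step at which miR-181b-5p fell in control cells and miR-181d-5p was not called in either arm. Most of the summed signal is miR-124-3p and the arms of miR-9. In control day 14 cells miR-124-3p, miR-9-5p and miR-9-3p averaged 3.30, 3.45 and 2.29 in scaled log2 signal. miR-128-3p, miR-137-3p and miR-138-5p averaged -1.51, -0.92 and -2.79 there. None of the 6 was at background on every array. Their part in the miR-181 differences was not tested.

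Among longer lists, 4 of 16 tested neuronal miRNAs were called higher and 6 lower in treated than in control cells at day 9 (median -0.03), and 2 were called higher and 10 lower at day 14 (median -0.38). This list includes the 6 neuronal markers above, and those called higher all lie outside them. Control day 14 cells had 13 called higher and 3 lower than day 5 (median 1.33). Of 10 tested neural progenitor miRNAs outside the family, 2 were called higher and 1 lower in treated cells at day 9 (median 0.01), and 5 higher and 2 lower at day 14 (median 0.24). The miR-181 members, all lower at day 9 with a median of -0.57, lay below both medians of that day. They lay above the median of the 6 neuronal markers, which was -0.87 at day 9.

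The marker miRNAs of other cells moved as follows. Of 7 tested pluripotency miRNAs 7 were called lower at day 9 than at day 5 in treated cells (median -2.18) and 7 in control cells (median -2.18), and the summed signal of 7 pluripotent cell markers was 0.648 to 0.711 in treated and 0.543 to 0.621 in control cells at day 9, against 2.14 to 3.01 at day 5. The 2 glial markers, miR-219-5p and miR-338-3p, summed to 4.73 to 5.01 in treated day 9 cells and 1.73 to 2.11 in control day 9 cells, opposite to the family, and to 2.25 to 2.94 in treated and 1.56 to 1.62 in control cells at day 14. Most of that sum is miR-219-5p, which was higher in treated cells by 0.78 at day 14, while miR-338-3p was lower by a log2 difference of -0.41, both called. Of 4 mesenchymal markers 1, miR-199a-3p, was above background on any array, on 6 of 15, and it was called higher in treated cells at both days. The part of these cell types in the miR-181 differences was not tested.

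**Figure D4:**
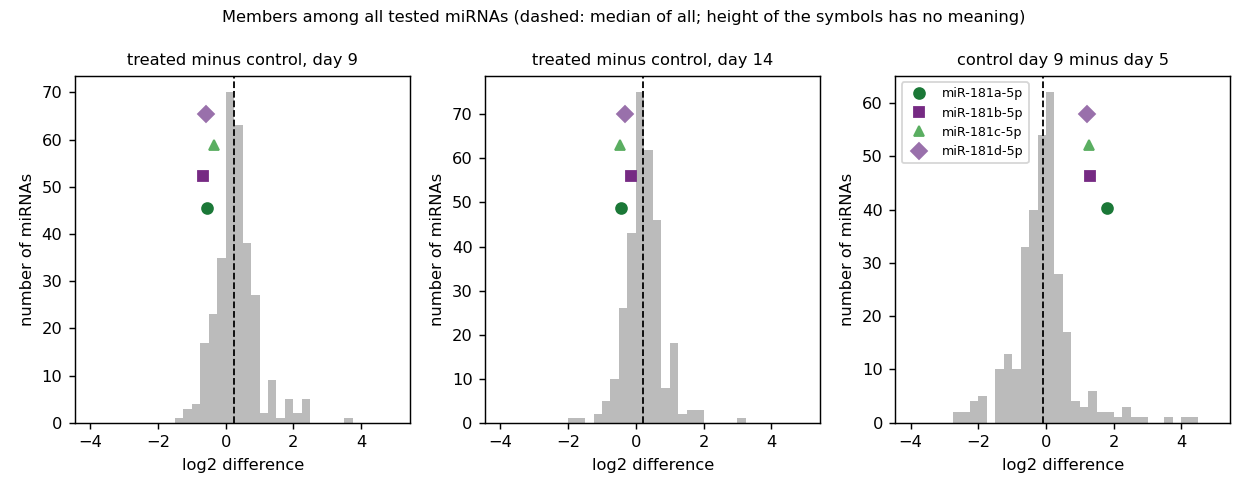
Distribution of log2 differences over all 306 tested miRNAs (bars, number of miRNAs) in 3 comparisons, with the 4 members as symbols and the median of all as a dashed line. The members sit at -0.66 to -0.34 against a median of 0.25 for treated minus control at day 9, at -0.48 to -0.15 against 0.21 at day 14, and at 1.21 to 1.79 against -0.09 for control day 9 minus day 5.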

How the data were processed

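Total RNA (miRVana) was labelled with Cy3 and hybridized to Agilent SurePrint mouse miRNA arrays, release 18, per the labels' protocols. The deposited scanner tables give spot signals in units of intensity, with background subtracted and no normalization between arrays, per the file headers (Feature Extraction 11.0.1.1); further deposited columns, of another kind (other), are flags for spots above background, saturated spots and outliers. The deposited series-wide values are also an intensity: 14 of their columns equal the scanner tables' mean over all spots within 0.1% for 73.3% to 83.8% of probes, so their scale is linear and no array was centred. For treated day 14 cells, replicates 1 and 2 hold the same column there (86% of probes equal within 0.1%) and counted as 1 replicate where that table was used. The column of replicate 1 equals its own scanner table for 80.5% of probes, and that of replicate 2 for 0.369%. The column of replicate 2 is thus the one that repeats another array. The medians of these columns were 0.44, 0.542 and 0.381 in treated day 9, 0.7, 0.7 and 0.257 in treated day 14, -0.0215, 0.103 and 0.217 in control day 9, 0.235, 0.267 and 0.436 in control day 14, and 0.1, 0.218 and 0.0452 in day 5 cells. The submitters' processing notes name limma 3.20.9 with no role.

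Here the non-outlier spots of a probe were averaged and scaled by the 75th percentile of the array, taken over 353 mouse probes above background (at least 50% of spots) on all 15 arrays, then floored at -4.27 on the log2 scale and put on that scale. Each of 1122 miRNAs (2847 probes) was represented by its brightest probe, and a miRNA was tested if at least 1 group had it above background on each of its arrays, which left 306. One limma fit (version 3.58.1, in R 4.3.3, jsonlite 2.0.0 and the data.table package at version 1.17.8; 10 residual and 3.06 prior degrees of freedom) held the 5 groups, with two-sided tests and Benjamini-Hochberg adjustment over 306. The number of arrays limits the precision. The fit was tested on simulated data. Figures were made in Python 3.11.15 using numpy 2.4.6, pandas 2.3.3 and matplotlib 3.10.9.

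The alternatives were other scalings, normexp background correction (offset 50), filters and floor, the mean over probes, the summed signal, the value table, slide and replicate number as blocks, single slides, and leaving out each array. The scanner tables used here hold no mean signal, so normexp used the median spot and median background signals. The named miRNAs were the 4 members, the 6 other arms, the 5 most like the family and lists of neuronal, neural progenitor and pluripotency miRNAs and cell markers. Members, lists and tests were chosen with earlier results of these data known.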

Additional observations from a re-analysis of the deposited data

Results flagged for a closer look

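The difference between treated and control cells in miR-181b-5p was not the same on both days. It was -0.15 (SE 0.07) at day 14 and -0.66 (SE 0.07) at day 9 on the log2 scale, and the interaction of treatment and day, 0.51 (SE 0.10, adjusted p 0.0015, limma), passed the test. Over that interval miR-181b-5p moved to -0.66 in control cells of day 14, against -0.21 in those of day 9, and to -0.81 in treated cells of day 14, against -0.87 in those of day 9. Leaving out any 1 array gave 0.46 to 0.55, and the second probe of miR-181b-5p gave 0.56. The value was 0.35 (adjusted p 0.12) with normexp background correction and 0.33 (adjusted p 0.056) with the summed signal. Such an interaction was not rare: 32.7% of the 306 tested miRNAs were called in this comparison, 16.7% in the direction of miR-181b-5p. Ordered from the highest, the interaction of miR-181b-5p held place 38.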

How the results depend on the processing

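Of the 9 comparisons, no call of a miR-181 member changed when any 1 array was left out; the members called stayed at 4, 3, 1, 4, 4, 2, 3, 4 and 4 in the order treated minus control at day 9, at day 14, their difference, treated day 9 minus day 5, control day 9 minus day 5, treated day 14 minus day 9, control day 14 minus day 9, treated day 14 minus day 5 and control day 14 minus day 5. The differences of response between members, none called, lay near 0 and changed sign without 1 array for 3 pairs: miR-181a-5p minus miR-181d-5p ran from -0.07 to 0, miR-181b-5p minus miR-181c-5p from -0.03 to 0.04 and miR-181c-5p minus miR-181d-5p from 0 to 0.08. The same pairs read -0.06 (normexp) and -0.02 (higher floor) for miR-181b-5p minus miR-181c-5p and 0 (mean over probes) for miR-181c-5p minus miR-181d-5p.

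As reported, 170, 163, 100, 180, 180, 202, 166, 220 and 210 miRNAs were called in these comparisons. With normexp 78, 58, 21, 101, 102, 133, 94 and 143 miRNAs were called in the first 8 comparisons. The call of miR-181c-5p was then lost for treated minus control at day 9 (-0.16, adjusted p 0.46) and for control day 14 minus day 9 (0.19, adjusted p 0.34). The members called with normexp were 1 at day 14, 0 for the difference of the days, 2 for treated day 9 minus day 5, 1 for treated day 14 minus day 9 and 2 for treated day 14 minus day 5. Its day changes between members fell short at -0.27, -0.11 and 0.16 for miR-181b-5p minus miR-181c-5p, miR-181b-5p minus miR-181d-5p and miR-181c-5p minus miR-181d-5p, as did the second of these with the mean over probes (-0.14; adjusted p 0.05 in each). With the stricter filter (191 tested) the counts that moved were 105 (treated minus control, day 9), 57 (the difference of the days), 116 (treated day 9), 139 (treated day 14) and 136 (control day 14, these 3 minus day 5), where fewer miRNAs could be called. A floor 4 times higher gave 95 and 93 for treated minus control at day 9 and day 14 and 108, 133, 96, 135 and 132 for the last 5 comparisons, and slide as a block 75 and 107 for treated minus control at day 9 and day 14 and 98 for control day 9 minus day 5, of which 72, 104 and 94 were also called without it. Slide as a block lost the call of miR-181c-5p for treated minus control at day 9 and that of miR-181d-5p at day 14. Slide 2 alone gave 105 at day 14. Treated day 14 minus day 9 had 1 member called with the percentile over all probes, quantile normalization, median scaling and the summed signal, and the difference of the days had 0 with the summed signal.

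Differences that were not called or near 0 changed sign. miR-181b-5p in treated day 14 minus day 9 was 0, -0.15 and -0.15 with quantile normalization, median scaling and the summed signal, and miR-181d-5p -0.16, -0.09 and -0.13. The difference of the days was 0.08 and 0.20 for miR-181c-5p with the percentile over all probes and quantile normalization, and -0.11 for miR-181a-5p with the summed signal; miR-181c-5p in control day 14 minus day 9, called as reported, was -0.07 with quantile normalization. The cause was not tested in any of these. The replicate numbers did not pair the samples: same-numbered arrays of different groups correlated at -0.570 to 0.526 in their deviations, and 3 of 15 arrays correlated best with their own number. The replicate block called 170 miRNAs at day 9 and 157 at day 14 and changed no call of a member. The summed signal and the day changes between members were alternatives and tests chosen after seeing the data.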
